A study of Mus musculus with 4 samples.

Results

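The lineage genes of conventional dendritic cells (cDCs) were followed through dendritic cells (DCs) and T cells taken from mouse tumours. The set holds 10 of the 21959 genes listed in the deposited tables, chosen by name as genes of pan-cDC, cDC1 and cDC2 identity, and all 10 were found in both tables. The pan-cDC genes were Zbtb46, Flt3 and Itgax. The cDC1 genes were Batf3, Clec9a, Xcr1 and Wdfy4, and the cDC2 genes were Cd209a, Clec10a and Sirpa.

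Conventional DCs are antigen-presenting cells that arise from bone marrow precursors under the cytokine Flt3 ligand. The cDC1 branch depends on the transcription factor Batf3 with Irf8, takes up dead cells and presents their antigens to CD8 T cells, while the cDC2 branch, marked by Sirpa, is better known for presentation to CD4 T cells. In tumours both branches lie among macrophages and monocyte-derived cells, which share several of their surface proteins.

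Each group was 1 library. DCs and CD3+ T cells were isolated from MC38 tumours, a mouse colon carcinoma line grown in mice, 72 h after the second treatment. The mice were given PBS, the control, or X-Ray+O-IMDQ, which is X-rays together with O-IMDQ, a prodrug that radiotherapy activates. The 4 libraries were therefore DCs with PBS, DCs with X-Ray+O-IMDQ, T cells with PBS and T cells with X-Ray+O-IMDQ. Genotype, strain, age, doses, the gate used for DCs and the number of mice pooled per library are not given in the sources used here, and no arm with X-rays or the prodrug alone was analysed here. With no replicates, each difference below is between 2 libraries, its interval covers counting error only, and no p-value is given. Total counts were between 14056428 and 23797357.

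Levels between genes are compared in FPKM (counts scaled to gene length and to the library total), which the authors computed. Differences between libraries are log2 ratios of counts scaled with TMM (the trimmed mean of M values, a scaling that assumes most genes are even). After it, the median log2 ratio of all tested genes in DCs was still -0.36. Genes reaching 20 counts in 1 of the libraries compared were tested, and were called higher or lower at 2-fold or more with a 95% interval off 0. A library at 0 counts was set at a floor of 3 counts. Its fold is then the value at that floor, shown as a bound, and the 95% interval reaches closer to even.

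The DC label was held against these genes first. Summed FPKM of the 10 genes was 372.3 in DCs with PBS and 246.9 in DCs with treatment, against 9.11 and 20.1 in the T cell libraries. Cd209a alone made up 250.6 of the sum in DCs with PBS and 14.8 with treatment, and the fall of the sum in DCs followed that gene. Of the 10 genes, 10 and 9 were detected in the DC libraries and 6 and 5 in the T cell libraries. Yet Zbtb46 and Flt3, which set cDCs apart from macrophages, were among the lowest in DCs, at 9 and 16 counts with PBS and 57 and 69 with treatment. Markers of macrophages were abundant beside them. The 15 macrophage markers summed to 51280 CPM (counts scaled to the library total alone) in DCs with PBS and to 6788 with treatment, with none at 0 in either. Of these, 9 were called lower, 6 neither and 0 higher with treatment, against 41.8% lower and 30.2% higher over all 10316 tested genes. The most abundant, Lyz2, had 836671 and 54737 counts. The part of macrophage RNA in the results below was not tested. In bulk RNA, fewer cells of a type and less RNA per cell cannot be told apart.

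**Figure D1:**
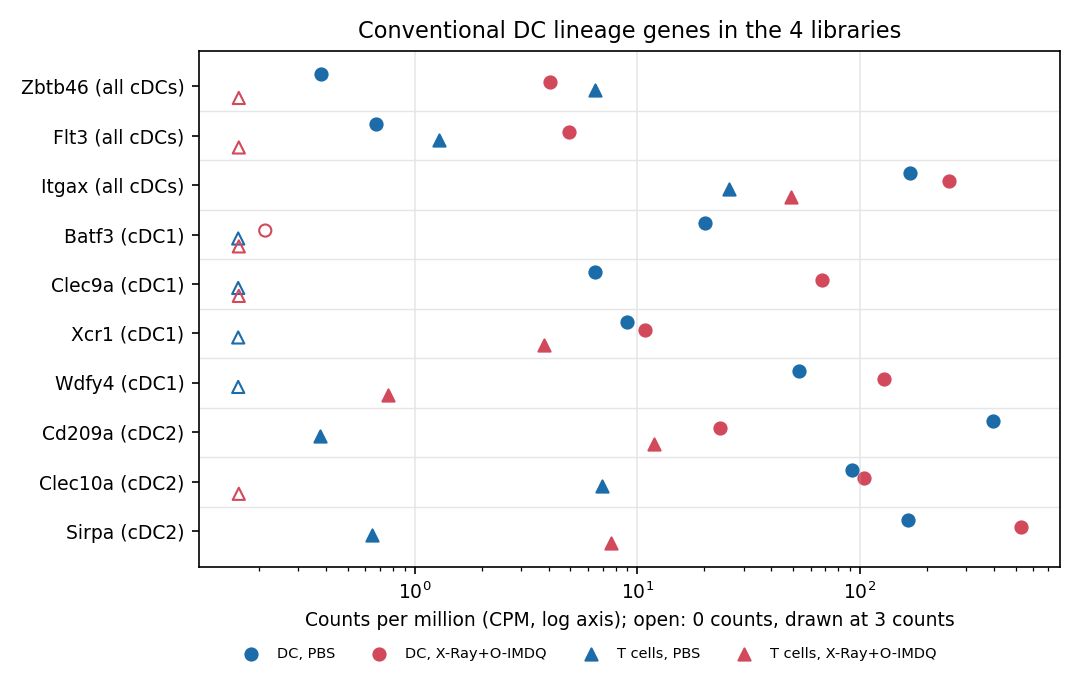
CPM (log axis) of the 10 lineage genes in the 4 libraries, circles for DCs and triangles for T cells, blue for PBS and red for X-Ray+O-IMDQ; an open symbol is a library with 0 counts, drawn at the 3-count floor. Batf3 sits at 20.1 CPM in PBS DCs and at 0 elsewhere, and Cd209a at 396.7 CPM in PBS DCs and 23.4 CPM in treated DCs.

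The order of levels differed between the DC libraries. In PBS DCs the FPKM order was Cd209a at 250.6, Itgax at 34.8, Sirpa at 33.4, Clec10a at 31.6, Batf3 at 12.6, Wdfy4 at 5.06, Xcr1 at 2.01, Clec9a at 1.97, Flt3 at 0.109 and Zbtb46 at 0.0445. In treated DCs it was Sirpa at 107.4, Itgax at 52.5, Clec10a at 35.8, Clec9a at 20.6, Cd209a at 14.8, Wdfy4 at 12.1, Xcr1 at 2.43, Flt3 at 0.795, Zbtb46 at 0.477 and Batf3 at 0. Cd209a thus stood at percentile 97.35 of detected genes with PBS and 79.03 with treatment, while Clec9a stood at 43.29 and 83.19. Neighbours in the order such as Itgax, Sirpa and Clec10a with PBS, or Xcr1 and Clec9a, lie close together, and 1 library per group gives no spread over samples by which to part them.

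The 4 promoters below are shown because their genes span the outcomes in DCs: Flt3 and Clec9a were higher with treatment, Cd209a was lower, and Itgax was neither. Each is the 250 bases before the gene start from RefSeq (GRCm38.p6), 5' to 3' on the gene's strand, with Flt3 at chr5:147400490-147400739 (minus strand), Clec9a at chr6:129408612-129408861 (plus), Cd209a at chr8:3748985-3749234 (minus) and Itgax at chr7:128129300-128129549 (plus). Capitals mark a match to the AP-1 motif.
Flt3: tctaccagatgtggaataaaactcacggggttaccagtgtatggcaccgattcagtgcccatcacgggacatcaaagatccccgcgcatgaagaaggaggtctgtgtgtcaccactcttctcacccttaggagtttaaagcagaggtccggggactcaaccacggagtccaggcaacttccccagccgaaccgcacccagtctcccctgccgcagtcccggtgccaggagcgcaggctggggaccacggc
Clec9a: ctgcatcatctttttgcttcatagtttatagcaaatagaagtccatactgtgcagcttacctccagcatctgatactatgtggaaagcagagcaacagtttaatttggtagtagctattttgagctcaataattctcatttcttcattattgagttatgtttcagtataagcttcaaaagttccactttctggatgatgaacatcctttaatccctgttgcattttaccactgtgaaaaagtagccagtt
Cd209a: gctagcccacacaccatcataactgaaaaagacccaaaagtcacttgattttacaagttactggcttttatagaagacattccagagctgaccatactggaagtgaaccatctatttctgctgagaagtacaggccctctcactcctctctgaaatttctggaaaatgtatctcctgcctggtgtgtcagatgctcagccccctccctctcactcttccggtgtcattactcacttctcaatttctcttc
Itgax: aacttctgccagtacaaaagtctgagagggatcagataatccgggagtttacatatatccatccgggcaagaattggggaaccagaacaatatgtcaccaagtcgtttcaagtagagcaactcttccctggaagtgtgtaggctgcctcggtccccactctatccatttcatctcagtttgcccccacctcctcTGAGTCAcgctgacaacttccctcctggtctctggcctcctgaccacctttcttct

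RefSeq windows were matched for 8 of the 10 genes, not for Clec10a and Sirpa. Batf3 pairs with Jun proteins on AP-1 motifs and, with Irf4 or Irf8, on the composite motif AICE, so these were searched on both strands beside ISRE, the interferon response motif, and the myeloid PU.1 motif. The AP-1 letters TGANTCA read the same on either strand. They were found in 2 of the 8 windows, against 6.75% of 32851 RefSeq windows of the same length. One was in Itgax at positions -56 to -50 from the gene start. The other was in the Zbtb46 window at -61 to -55, but 4 of 5 Zbtb46 transcripts of GENCODE (release 21 for mouse, GRCm38) start upstream and span that window, so it is not shown. AICE, which contains the AP-1 letters, was in 0 of 8 against 0.0974%, and ISRE in 0 of 8 against 2.98%. PU.1, searched as GAGGAAG, was in 1 of 8, Batf3, against 10.6%. The Batf3 window overlaps 4 of 5 GENCODE transcripts of the gene and the Wdfy4 window 1 of 4, so these windows hold transcribed sequence and are not shown either. Of the windows shown, that of Itgax overlaps 1 of 4 transcripts, by 3 bases. A match here describes letters only.

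In DCs, treatment with X-Ray+O-IMDQ was set against PBS. Zbtb46, Flt3, Clec9a, Wdfy4 and Sirpa were higher in the treated library, by 2.50-fold to 11.2-fold. Batf3 and Cd209a were lower, Batf3 from 479 counts to 0 and Cd209a 16.3-fold. Xcr1, Itgax and Clec10a lay within 2-fold. All 10 were tested, and 5 were called higher and 2 lower. Over all 10316 tested genes 30.2% were called higher and 41.8% lower, so a call in either direction was common. The median log2 ratio was 0.99 for the 10 genes and -0.36 for all tested genes. Zbtb46 and Flt3 reached 20 counts only in the treated library, so by that filter they could only enter as higher. Batf3 reached it only in the PBS library and could only enter as lower.

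**Figure D2:**
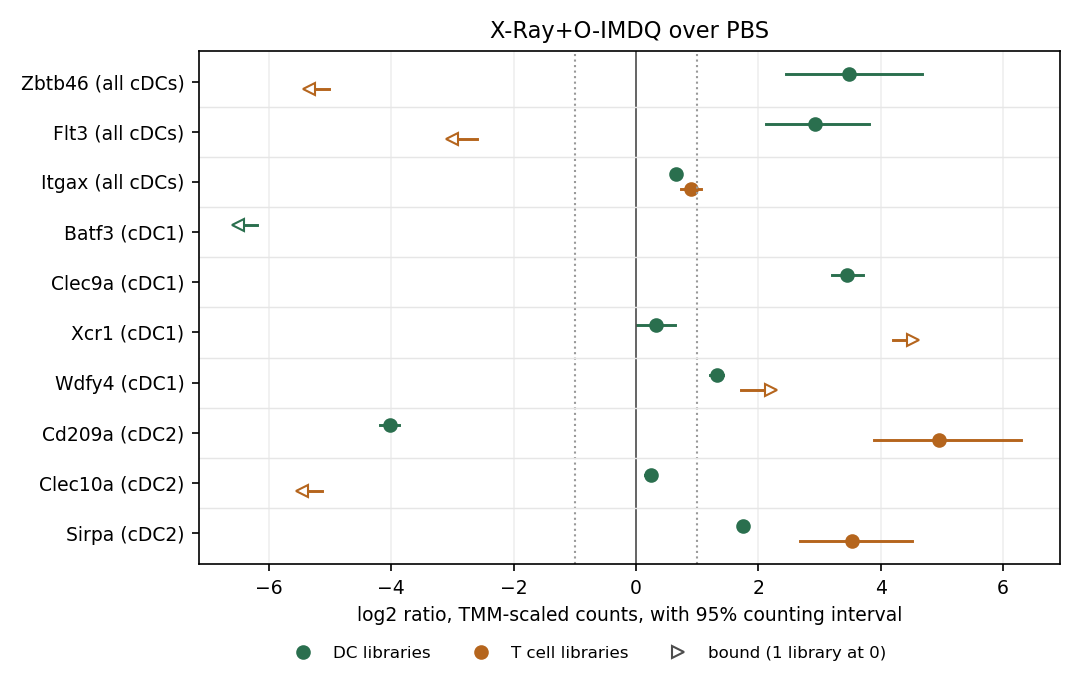
Log2 ratio of X-Ray+O-IMDQ over PBS for each lineage gene in DCs (green) and T cells (brown), with 95% counting intervals; open arrowheads are bounds where 1 library had 0 counts, and dotted lines mark 2-fold. Zbtb46, Flt3 and Clec9a lie near 3 in DCs, Batf3 and Cd209a lie below -4, and Zbtb46, Flt3 and Cd209a take opposite sides in DCs and T cells.

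Among the pan-cDC genes, Zbtb46 encodes a zinc finger repressor found in cDCs and their committed precursors. The gene is on chromosome 2, 181029555-181101219 (GRCm39, minus strand; ENSMUSG00000027583). It had 9 counts in PBS DCs and 57 in treated DCs, or 0.0445 and 0.477 FPKM. The log2 ratio was 3.48 with an interval of 2.46 to 4.68. Both levels were low, at percentiles 6.18 and 23.6 of the detected genes.

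Flt3 encodes the receptor tyrosine kinase for Flt3 ligand, the growth factor of cDCs. Flt3 is on chromosome 5, 147267551-147337299 (minus strand; ENSMUSG00000042817). It had 16 counts in PBS DCs and 69 in treated DCs, or 0.109 and 0.795 FPKM. Its log2 ratio was 2.93 (2.13 to 3.81). Flt3 therefore went the same way as Zbtb46 and, like it, from a level near the limit of detection.

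Itgax encodes CD11c, the integrin alpha chain used to sort DCs, which macrophages in tumours also carry. Itgax is on chromosome 7, 127728719-127749829 (plus strand; ENSMUSG00000030789). It was abundant in both DC libraries, with 3982 and 3547 counts, or 34.8 and 52.5 FPKM. The log2 ratio of 0.65 (0.59 to 0.72) was under 2-fold. When each ratio was centred on the median of genes of like length, an alternative chosen after seeing the data, it became 1.01 and was called.

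Of the cDC1 genes, Batf3 encodes the AP-1 family factor that cDC1 development depends on. Batf3 is on chromosome 1, 190830044-190841142 (plus strand; ENSMUSG00000026630). It had 479 counts in PBS DCs, or 12.6 FPKM, and 0 in treated DCs. At the floor this was 90.5-fold lower, a log2 ratio of -6.50 with the interval ending at -6.20. A drop to 0 was not rare at that depth: of 3066 genes within 2-fold of Batf3's PBS count, 395, or 12.9%, were at 0 in the treated DC library. Among all genes called lower in DCs, 1525 were at 0 in the treated library.

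Clec9a encodes DNGR-1, the receptor by which cDC1s sense actin exposed on dead cells. Clec9a is on chromosome 6, 129385825-129401726 (plus strand; ENSMUSG00000046080). It had 154 counts in PBS DCs and 952 in treated DCs, or 1.97 and 20.6 FPKM. The log2 ratio was 3.45 (3.20 to 3.70), 10.9-fold higher. Clec9a was thus high in the library in which Batf3 was at 0.

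Xcr1 encodes the receptor for the chemokine Xcl1 and is found mainly on cDC1s. Xcr1 is on chromosome 9, 123681380-123691094 (minus strand; ENSMUSG00000060509). It had 213 and 152 counts, or 2.01 and 2.43 FPKM, a log2 ratio of 0.33 (0.02 to 0.64). Unlike Clec9a, it stayed within 2-fold between the DC libraries.

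Wdfy4 encodes a BEACH-domain protein that cDC1s need for cross-presentation of cell-associated antigen. Wdfy4 is on chromosome 14, 32681504-32907465 (minus strand; ENSMUSG00000051506). It had 1271 and 1801 counts, or 5.06 and 12.1 FPKM. Its log2 ratio of 1.32 (1.22 to 1.43) was called higher. Centring by gene length reduced it to 0.70, under 2-fold.

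Summed over the 4 cDC1 genes, FPKM was 21.6 in PBS DCs and 35.1 in treated DCs. Batf3 made up the largest share of that sum with PBS, and Clec9a with treatment.

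Of the cDC2 genes, Cd209a encodes a DC-SIGN-related lectin of cDC2s and of monocyte-derived cells. Cd209a is on chromosome 8, 3793397-3798984 (minus strand; ENSMUSG00000031494). It had 9441 counts in PBS DCs and 329 in treated DCs, or 250.6 and 14.8 FPKM. The log2 ratio was -4.02 (-4.19 to -3.87), 16.3-fold lower.

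Clec10a encodes MGL1, a lectin that binds galactose-type sugars and that cDC2s share with macrophages. Clec10a is on chromosome 11, 70047023-70061660 (plus strand; ENSMUSG00000000318). It had 2183 and 1459 counts, or 31.6 and 35.8 FPKM. Its log2 ratio was 0.24 (0.14 to 0.33), within 2-fold. Centred by gene length it was 1.36 and called higher.

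Sirpa encodes SIRP alpha, the inhibitory receptor for CD47 that marks cDC2s and also macrophages. Sirpa is on chromosome 2, 129434755-129474148 (plus strand; ENSMUSG00000037902). It had 3902 and 7411 counts, or 33.4 and 107.4 FPKM. The log2 ratio was 1.74 (1.69 to 1.80), 3.35-fold higher. Sirpa and Cd209a therefore went opposite ways, and the summed FPKM of the 3 cDC2 genes, 315.6 with PBS and 157.9 with treatment, followed Cd209a. Without Cd209a the sum was 65.0 and 143.2.

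Gene length differed between the genes that were higher and lower. In DCs, genes listed under 2000 bases, the class of Batf3 and Cd209a, had a median log2 ratio of -0.74 over 1418 genes. Those of 2000 to 4000 bases, with Clec9a and Clec10a, had -1.01 over 3094 genes. Those of 4000 bases and over, with the other 6, had 0.02 over 5804 genes. The part of length in these results was not tested beyond the centring by length given above. Cd209a, Batf3, Clec9a, Zbtb46, Flt3 and Sirpa kept their calls under it.

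The ligands, signalling partners and transcription partners of the 10 genes were read next. Of 15 in DCs, 5 were called higher, 2 lower and 8 neither, with a median of 0.64. Over all tested genes 30.2% were higher and 41.8% lower. The ligands of 2 receptors in the set were higher: Flt3l, which encodes Flt3 ligand, had 14 and 251 counts (log2 ratio 4.98), and Xcl1, the Xcr1 ligand, had 15 and 116 (3.77). Cd47, the Sirpa ligand, had 8280 and 3820 counts (-0.30). Itgb2, the beta chain that pairs with CD11c, had 13881 and 3950 (-0.99), and Icam1, an integrin ligand, had 963 and 0.

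The partners of Batf3 were at or above their PBS level. Jun had 340 and 2065 counts (3.42), while Junb (0.53) and Jund (0.64) lay within 2-fold. Irf8, the cDC1 factor, was at 1.03 and Irf4, the cDC2 factor, at 1.04, both just past 2-fold. Downstream of Clec9a and Sirpa, Syk (0.11), Ptpn6 (0.73), Ptpn11 (388 and 439 counts, just under 2-fold) and Skap2 (0.34) were not called, and Fyb (-1.08) was called lower.

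Paralogs and chromosomal neighbours were called in both directions. Of 21, 19 were tested in DCs, with 7 higher, 6 lower, 6 neither and a median of 0.25, beside the same shares over all tested genes. Beside Cd209a, Cd209d had 268 and 746 counts (2.30), Cd209e had 307 and 0, and Cd209c was at -0.52. Beside Clec10a, its close copy Mgl2, which encodes MGL2, had 67405 and 6826 counts (-2.48). Beside Sirpa, Sirpb1b had 369 and 592 counts and was called higher, with Sirpb1c at -0.92 and Sirpb1a at -2.19. Reads shared between such near-identical copies can be split by the counting, so these values are uncertain.

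The relatives of Batf3 differed from each other. Batf, which can stand in for Batf3 in cDC1s under inflammation, had 895 and 17 counts (-4.90), while Batf2 was at 1.32. Near Clec9a in the lectin cluster, Clec1a was at 4.07, Clec12a at 0.48, Clec7a, which encodes Dectin-1, at -0.45 and Clec1b at -1.40. Among the integrin alpha chains related to Itgax, Itgad went from 3 to 176 counts (6.69), Itgal was at 2.36 and Itgam at 1.21. Kit (0.92) and Csf1r (0.25), kinases related to Flt3, lay within 2-fold, and Wdfy3 was at -1.11.

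Other genes of the lineage were read from lists, to be set against the 30.2% higher and 41.8% lower of all tested genes. Listed genes at 0 in 1 library could only be called in 1 direction. Some genes are in several lists, so the lists are not separate observations. Of 23 other core cDC genes tested, 7 were higher, 6 lower and 10 neither, with a median of 0.27. The most abundant were Ccr7 (-1.77), the receptor for migration to lymph nodes, Ass1 (-2.07), Traf1 (0.58) and Cnn2 (-0.17). Of 20 other cDC1 genes, 9 were higher, 7 lower and 4 neither (median 0.73), and the most abundant were Naaa (0.56), Rab7b (0.90), Ppt1 (-1.83) and Nfil3 (1.34). Of 15 other cDC2 genes, 8 were higher, 4 lower and 3 neither (median 1.04). Ccl17, a chemokine of cDC2s and mature DCs, led them with 12285 and 79339 counts (3.51), followed by Mgl2, Clec12a and Clec4a2 (1.28).

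Of 27 transcription factors of cDC development, 15 were called higher, 4 lower and 8 neither, with a median of 1.04, beside 30.2% higher, 41.8% lower and a median of -0.36 over all tested genes. The most abundant were Junb, Spi1 (-0.11), which encodes PU.1, Klf4 (2.64), a cDC2 factor, and Nfil3, which acts early in cDC1 fate. Several of the 27, such as Irf8, Irf4, Nfil3 and Klf4, were already counted in the cDC1, cDC2 or partner lists. Of 7 growth factor and receptor genes, 3 were higher and 0 lower (median 0.92), with Csf2rb at 1.16, Csf2rb2 at 1.69, Csf2ra at -0.17 and Csf1r as above. Of 14 cross-presentation genes, the pathway Wdfy4 serves, 1 was higher, 5 lower and 8 neither (median 0.17). Rac2 (-2.46) and Unc93b1 (-2.62) were among the lower, and Tapbp (0.80) and Tap1 (0.32) were within 2-fold.

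**Figure D3:**
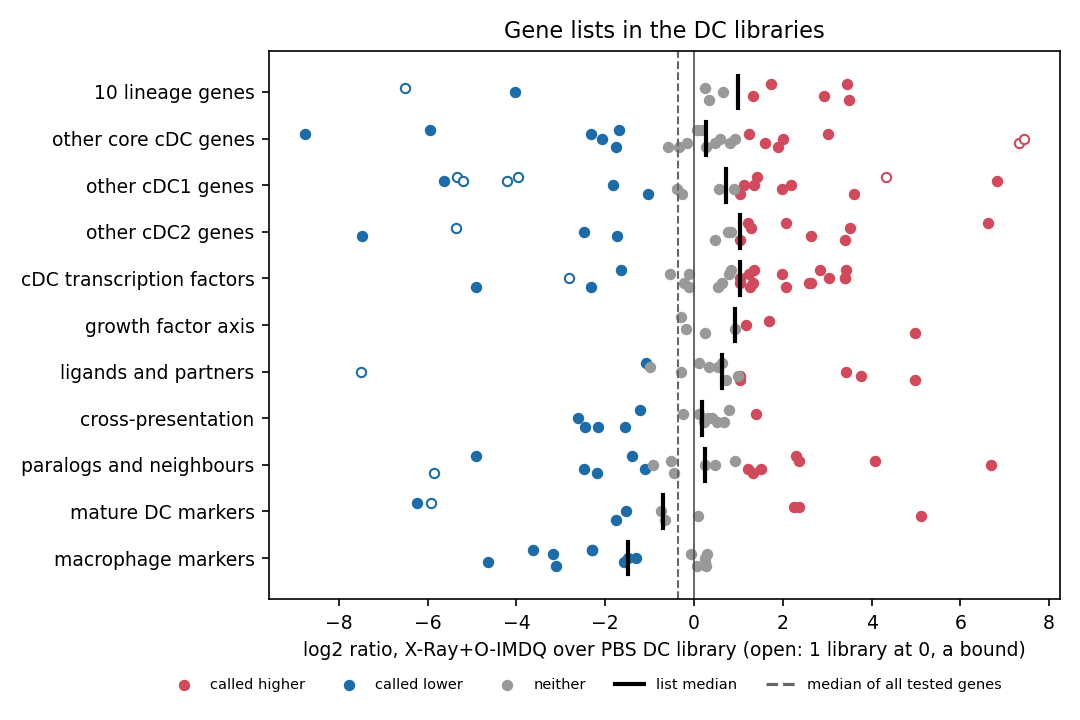
Log2 ratio of X-Ray+O-IMDQ over PBS in DCs for each tested gene of 11 lists (red higher, blue lower, grey neither; open symbols are bounds); black bars are list medians and the dashed line the median of all tested genes, -0.36. The 10 lineage genes spread over both sides with a median of 0.99, and no macrophage marker is called higher.

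Markers of other cells were called in both directions in DCs, and their counts are to be read against the 30.2% higher and 41.8% lower of all tested genes. Markers of mature DCs summed to 1874 and 884.9 CPM with 3 of 10 tested higher and 4 lower. Plasmacytoid DC markers had 3 of 7 higher and 3 lower, monocyte markers 1 of 7 higher and 2 lower, and neutrophil markers 3 of 4 higher and 1 lower. T cell markers summed to 71.8 and 104.2 CPM (4 of 6 higher, 2 lower) and NK cell markers to 265.6 and 450.8 CPM (3 of 4 higher, 0 lower). Fibroblast markers had 3 of 4 higher and 1 lower, epithelial markers 1 of 2 each way, B cell markers 0 of 1 higher and 1 lower, and mast cell and basophil markers were all at 0. Their part in the values of the 10 genes was not tested.

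In T cells the same genes were read as a background, since T cells are not known for most of them. Levels were low: the highest, Itgax, was at 5.37 FPKM with PBS and 10.2 with treatment. Of the 10 genes, 7 reached 20 counts in either library, and 3 were called higher and 3 lower. Among all 11058 genes tested in T cells, 18.3% were called higher and 25.4% lower. Calls in the T cell lists below are to be read against these shares. The 3 higher genes and the 3 lower ones include 4 that were at 0 in a library, and all 6 entered the test only through the library in which they were high.

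Zbtb46 had 120 counts in PBS T cells and 0 in treated T cells, 40.4-fold lower at the floor. Flt3 had 24 and 0, 8.07-fold lower at the floor, and Clec10a 130 and 0, 43.7-fold lower at the floor. These 3 genes were thus seen with PBS and not with treatment. Xcr1 had 0 and 70 counts, 23.1-fold higher at the floor. Cd209a had 7 and 219 (log2 ratio 4.95, interval 3.89 to 6.29) and Sirpa 12 and 140 (3.53, 2.68 to 4.52). These went the other way.

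Itgax had 481 and 901 counts in T cells, a log2 ratio of 0.89 (0.73 to 1.06), under 2-fold. Wdfy4 had 0 and 14, under the minimum for a test. Batf3 and Clec9a were at 0 in both T cell libraries, where 3 counts correspond to 0.161 and 0.162 CPM. Counts that drop to 0 were common at these depths. Of genes with a PBS T cell count within 2-fold of that of Zbtb46, 17.6% were at 0 with treatment, and the shares were 37.7% for Flt3 and 16.4% for Clec10a. In the other direction, 9.43% of genes with a treated T cell count within 2-fold of that of Xcr1 were at 0 with PBS. For Wdfy4 that share was 16.6%.

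Macrophage markers in T cells summed to 1011 CPM with PBS and 941.1 with treatment, with 1 of 13 tested higher and 5 lower. Mertk was at 0 in both libraries, and Adgre1, which encodes F4/80, had 334 and 0 counts. The most abundant, Lyz2 (11946 and 10445 counts), Cd68 (1362 and 2159), Cd14 (1472 and 1484) and Apoe (1308 and 1134), lay within 2-fold. Fcgr1, with 7 and 341 counts, was the 1 called higher. Mature DC markers had 2 of 8 higher and 3 lower. The part of such cells in the T cell values was not tested.

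Of the 15 partners in T cells, 0 were higher, 3 lower and 12 neither (median -0.04). T cells are a source of both receptor ligands: Flt3l had 530 and 255 counts (-1.07) and Xcl1 3036 and 1591 (-0.95). In PBS libraries both ligands were thus counted mostly in T cells, with 14 and 15 counts in DCs. Syk (-3.38) and Skap2 (-3.22) were the other 2 called lower. Cd47 (0.13), Itgb2 (0.41), Icam1 (0.91), Ptpn6 (-0.64), Ptpn11 (-0.22), Fyb (0.77), Jun (0.19), Junb (-0.04), Jund (-0.14), Irf8 (0.10) and Irf4 (0.33) lay within 2-fold.

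Paralogs and neighbours in T cells had 2 of 12 higher, 7 lower and 3 neither, with a median of -1.19 against -0.07 for all tested genes. Kit (1.63) and Wdfy3 (3 and 77 counts) were higher. Mgl2 (206 and 32 counts, -2.70), Clec12a (149 and 0), Clec7a (-1.25), Itgam (-2.63), Itgad (65 and 0), Batf2 (216 and 1) and Csf1r (-1.12) were lower, most of them myeloid genes. Batf (-0.08), which T cells use, Itgal (0.14), which encodes CD11a of T cells, and Cd209d (-0.78) were not called.

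Of the other lists in T cells, core cDC genes had 3 of 18 higher and 2 lower (median 0.33), with Cnn2 (0.23), Ccr7 (0.65), Traf1 (0.85) and Spint2 (0.21) the most abundant. Other cDC1 genes had 3 of 12 higher and 5 lower (0.08), with Id2 (0.06) the most abundant, and other cDC2 genes 2 of 15 higher and 5 lower (0.33), led by Ltb (0.52). Transcription factors had 1 of 25 higher and 4 lower (-0.04), growth factor genes 2 of 8 and 4 (-0.53), and cross-presentation genes 2 of 14 and 3 (-0.02).

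DCs and T cells were then set against each other under each treatment. With PBS, 8 of the 10 genes were called higher in DCs and 1 lower, against 25.6% of 11364 tested genes higher and 34.8% lower. With treatment, 9 of the 9 tested were higher and 0 lower, against 31.1% of 10606 higher and 43.4% lower. Batf3, at 0 in both treated libraries, could not be tested there. The filter fixed many of these directions. With PBS, Batf3, Clec9a, Xcr1, Wdfy4, Cd209a and Sirpa reached 20 counts only in DCs, and Zbtb46 and Flt3 only in T cells. With treatment, Zbtb46, Flt3, Clec9a, Wdfy4 and Clec10a reached it only in DCs. The counts of calls are therefore a description and support nothing about the set. The genes were chosen as DC genes, and their median log2 ratio was 6.09 with PBS, against -0.17 for all tested genes.

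**Figure D4:**
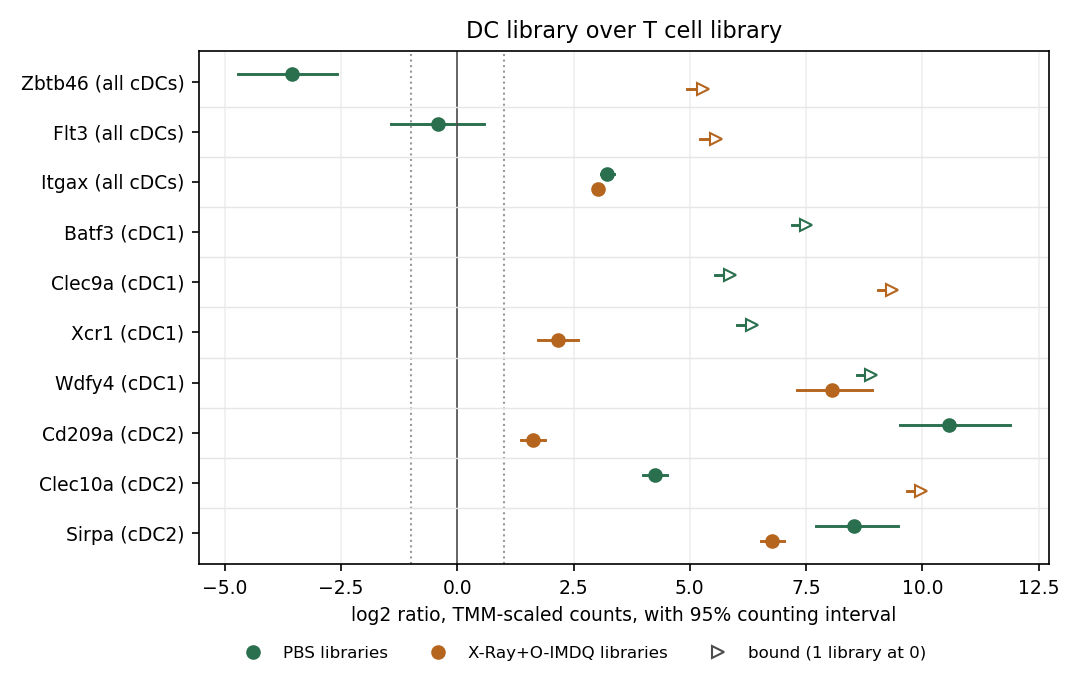
Log2 ratio of the DC library over the T cell library for each lineage gene with PBS (green) and with X-Ray+O-IMDQ (brown), with 95% counting intervals; open arrowheads are bounds where the T cell library had 0 counts. Zbtb46 is lower in DCs with PBS and higher with treatment, and Cd209a lies at 10.57 with PBS and 1.63 with treatment.

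The exceptions with PBS were pan-cDC genes. Zbtb46 had 9 counts in DCs and 120 in T cells, a log2 ratio of -3.56 (-4.72 to -2.59). Flt3 had 16 and 24, -0.41 (-1.42 to 0.56), an interval that spans 0. Itgax was 9.36-fold higher in DCs (3.23). The 4 cDC1 genes were at 0 in PBS T cells. At the floor, Batf3 was 180.4-fold, Clec9a 58.0-fold, Xcr1 80.2-fold and Wdfy4 478.8-fold higher in DCs. Cd209a (10.57), Sirpa (8.52) and Clec10a (4.25) were far higher in DCs.

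With treatment, at the floor, Zbtb46 was 39.1-fold and Flt3 47.3-fold higher in DCs, with 0 counts in the treated T cell library. Clec9a was 652.2-fold and Clec10a 999.6-fold higher, also at the floor. Itgax was at 3.02, Xcr1 at 2.16, Wdfy4 at 8.05 and Sirpa at 6.77. Cd209a was the closest to even, with 329 counts in DCs and 219 in T cells and a log2 ratio of 1.63 (1.38 to 1.88).

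These ratios across cell types depend on the scaling. TMM raised DC over T cell ratios by 0.53 on the log2 scale with PBS and 0.65 with treatment relative to scaling by total counts. Within a cell type its shift was 0.06 in DCs and -0.03 in T cells. By total counts, Cd209a with treatment was at 0.98 and not called. With PBS, the numbers of genes called higher and lower in DCs were 2906 and 3949 with TMM, 2171 and 4979 by total counts, and 2025 and 4792 on the log2(CPM + 1) scale. No other call of the 10 genes in these 2 comparisons changed by total counts.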

How the data were processed

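RNA-seq of tumour DCs and CD3+ T cells was analysed in 4 libraries, 1 per group, with 14056428 to 23797357 counts each. The authors deposited raw read counts and FPKM per gene. Each FPKM equals the count scaled by listed gene length and library total, within a relative difference of 2.04e-07. Per the submitters' processing notes, they used R 3.3.1, DESeq2 1.24.0, RSEM 1.2.12 and HISAT2 2.0.4 with GRCm39, with no role stated for each tool. The read file names in the sample descriptions gave the column of each sample; for all but the treated T cell sample they carry another number than the title. The 4 columns (2 libraries) that matched no sample were not used. Their names differ from those of the PBS columns used only by the number 2, which is the number in the PBS titles, so which library each PBS value comes from rests on the descriptions.

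Counts were scaled with TMM (edgeR 4.0.16, R 4.3.3), and each ratio got an exact Clopper-Pearson 95% interval conditional on the 2 counts (scipy 1.17.1). The intervals and the calling rule were run on simulated counts with counting error only. That run had no spread between samples, so it cannot speak to such spread here. There was no replicate error, so no p-values were made. Intervals cover counting error only.

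The members and the 22 lists, 234 genes of which 232 are in the tables, were chosen with earlier results of these data known. Named were all 10 members, their partners, every paralog with at least 20 counts, the most abundant 4 genes of other lists (fewer in T cells; marker lists by counts and sums), and the 2 genes nearest each member with at least 100 counts. Other genes named were chosen after their values were seen. Alternatives were other scalings (total counts, deposited FPKM, upper quartile, DESeq2 1.42.0 size factors), count minimums, log2(CPM + 1) and other fold thresholds. Chosen after seeing the data were centring by gene length and a floor of 10 counts. Some listed genes are not reported here.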

Additional observations from a re-analysis of the deposited data

Results flagged for a closer look

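For 3 genes the ratio of X-Ray+O-IMDQ over PBS was called in opposite directions in DCs and T cells. With 1 library per group the difference between the cell types was not tested. Zbtb46 was higher in treated DCs (9 and 57 counts) and lower in treated T cells (120 and 0), a difference of 8.82 between the log2 ratios, DCs minus T cells. Flt3 was higher in treated DCs (16 and 69) and lower in treated T cells (24 and 0), a difference of 5.94. Cd209a was lower in treated DCs (9441 and 329) and higher in treated T cells (7 and 219), a difference of -8.98. The Zbtb46 and Flt3 values use the 3-count floor in T cells. Zbtb46 and Flt3 in both cell types, and Cd209a in T cells, reached the minimum of 20 counts only in the library where they were high, so the filter fixed those directions.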

How the results depend on the processing

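No ratio of the 10 genes changed sign under any alternative that gave a value. The setting that moved most was a minimum of 20 counts in both libraries, which leaves out genes at or near 0 in 1 library. It left 3 of the genes higher and 1 lower in DCs, 0 higher and 0 lower in T cells, 2 higher and 0 lower in DCs over T cells with PBS, and 4 higher with treatment. Genes called lower among all genes were then 1825 in DCs, 1378 in T cells, 2108 in DCs over T cells with PBS and 1814 with treatment. A minimum of 100 counts left 3 of the genes higher in DCs, and so did a 4-fold threshold, under which Wdfy4 and Sirpa were no longer called. At 4-fold, all genes called higher were 1922 in DCs, 1003 in T cells (1774 lower) and 1750 in DCs over T cells with PBS. At 1.5-fold Itgax was called higher in DCs and in T cells. Cd209a in treated DCs over T cells was not called by total counts or FPKM (0.98), on the log2(CPM + 1) scale (0.92) or at 4-fold. Centring by gene length, chosen after seeing the data, changed Itgax, Wdfy4 and Clec10a in DCs as given above. List medians near 0 changed sign: that of cross-presentation genes in DCs was -0.03 when centred on genes counted in both libraries, and that of growth factor genes in T cells was 0.02 with a minimum of 100 counts. Medians of marker lists, and of all lists in DCs over T cells, were not run under the alternatives. No library could be left out, since each group has 1. Depth limits Zbtb46 and Flt3 most. In treated DCs the 3-count floor is 0.213 CPM, which is not an upper limit for a gene at 0 counts.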

Other observations

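For each gene, the pair of genes with the most similar pattern over the 4 libraries was found among 10546 genes, as the Euclidean distance of log2(CPM + 1) values centred on their mean. Over 4 libraries such likeness is a description only. Batf3, seen only in PBS DCs, was nearest to Gdf3 (0.09) and Il33 (0.12), and 17 genes lay within 0.5 of it. Clec9a was nearest to Gnb3 (0.21) and Il1a (0.31), Zbtb46 to Tmx4 (0.22) and Disp1 (0.34), Itgax to Naip2 (0.08) and Maff (0.28), and Xcr1 to Cryl1 (0.46) and Hdac5 (0.48). Clec10a was nearest to Cysltr1 (0.42) and Ptafr (0.50). Wdfy4 (Tgfbi, 0.52, and Sh2d1b1, 0.59), Sirpa (BC028528, 1.002, and Tgfbi, 1.17) and Cd209a (Tarm1, 1.003, and H2-DMb2, 1.26) had no gene within 0.5. Flt3 did not reach the 100 counts set for this comparison.

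In DCs, some genes of cDC biology outside the most abundant 4 of their lists also differed, chosen after their values were seen. Their lists held genes called in both directions, and 30.2% of all tested genes were called higher and 41.8% lower. The picked genes are therefore examples only. Itgae, which encodes CD103 of migratory cDC1s, had 63 and 436 counts (3.61). Zfp366, which encodes DC-SCRIPT, had 20 and 94 (3.05), Relb 86 and 518 (3.41) and S100a4 112 and 6299 (6.63). Cadm1, an adhesion gene of cDC1s, had 174 and 2 (-5.62), and Btla, an inhibitory receptor found on cDC1s, 217 and 2 (-5.94). Cadm1 and Btla reached 20 counts only in the PBS library, so by that filter they could only enter as lower.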
